A study of Mus musculus with 2 samples.

Results

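Cadherins are calcium-dependent adhesion proteins, and 9 cadherin genes of kidney epithelium and its surroundings were examined, taken by symbol from the 43346 mouse genes measured. They were Cdh1, Cdh2, Cdh3, Cdh4, Cdh6, Cdh11, Cdh13, Cdh16 and Cdh17, and each matched 1 row in the gene table of either library. The tissue was kidney of C57BL/6J mice, an inbred laboratory strain, taken from adults of 8 weeks with males and females of a litter pooled. It formed 1 group of 2 libraries numbered as biological replicates 1 and 2, with no treatment and a health state given as unknown. Polyadenylated RNA over 200 nt, depleted of ribosomal RNA, was sequenced from both ends with strand kept, in reads of 76 nt. Both libraries carry 1 donor label, so every SD measures only the spread between these libraries, which may be technical. Every p-value compares the reads of these libraries against counting error alone and measures no spread between animals.

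A cadherin reaches out of the membrane through a row of extracellular repeats, stiffened by calcium, that bind cadherins of the neighbouring cell. In the classical members the inner tail binds beta-catenin and p120 catenin, and alpha-catenin links the complex to actin, which makes the adherens junction that holds an epithelial sheet together. The family splits into type I members (Cdh1, Cdh2, Cdh3, Cdh4), type II members (Cdh6, Cdh11), members with extra repeats and a short tail (Cdh16, Cdh17), and Cdh13, which has no tail and hangs on a lipid anchor. In kidney, E-cadherin is known from the distal nephron and collecting duct, N-cadherin from the proximal tubule, and kidney-specific cadherin from the basolateral side of tubule cells.

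The type I members share a short stretch that the other 5 lack, the codons for histidine, alanine and valine in the first extracellular repeat, and it is shown here because it sorts the members by class. The motif searched was CATGCNGTN or CACGCNGTN, 9 bases in the reading frame and on the coding strand alone, in GENCODE M21 coding sequences on GRCm38. It occurred 1 time each in Cdh1, Cdh2, Cdh3 and Cdh4, at codons 235, 238, 178 and 245, and in none of Cdh6, Cdh11, Cdh13, Cdh16 and Cdh17. Among 21584 coding sequences, 1 for each gene, 5.06% held it, and among the 4700 at least as long as the shortest member 11.1% did. In each of these 4 genes the 33-base window around the motif crossed the same boundary, with its first 3 bases at the end of exon 5 and the other 30 in exon 6. The windows of 3 of them follow, from 5′ to 3′ on the plus strand, with the motif in capitals and the intron between the exons left out. They lie at chr8:106653917-106656853 for Cdh1-201, chr8:106536969-106537103 for Cdh3-201 and chr2:179843122-179847249 for Cdh4-201.
Cdh1: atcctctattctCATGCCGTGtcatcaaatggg
Cdh3: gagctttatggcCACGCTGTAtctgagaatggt
Cdh4: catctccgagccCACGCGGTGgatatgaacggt
Of the 33 bases, Cdh1 and Cdh3 shared 18, Cdh1 and Cdh4 shared 15, and Cdh3 and Cdh4 shared 19. A match describes the letters of the coding sequence and does not show binding.

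Over whole coding sequences the closest pairs also lay within a class. Cdh2 and Cdh4 were the most alike, with 67.1% of the bases of the longer sequence identical in a global alignment. Cdh6 and Cdh11, both type II, followed at 62.4%, and Cdh1 and Cdh3, which lie 46.1 kb apart on chromosome 8, at 60.3%. Cdh16 and Cdh17 shared 53.6%, close to the 53.8% of Cdh16 with Cdh11. Cdh13, the shortest at 714 codons where Cdh4 has 913, had 47.7% to 51.9% with the others on this measure. In percent of the aligned bases alone its range was 59.7% to 63.2% and that of Cdh17 57.21% to 61.02%. On that measure Cdh2 and Cdh4 led again, at 68.9%, and Cdh1 and Cdh3, at 65.8%, came before Cdh6 and Cdh11, at 64.2%. The deposited SD of the estimated count was at most 0.44 counts for any of the 9 genes in either library.

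**Figure D1:**
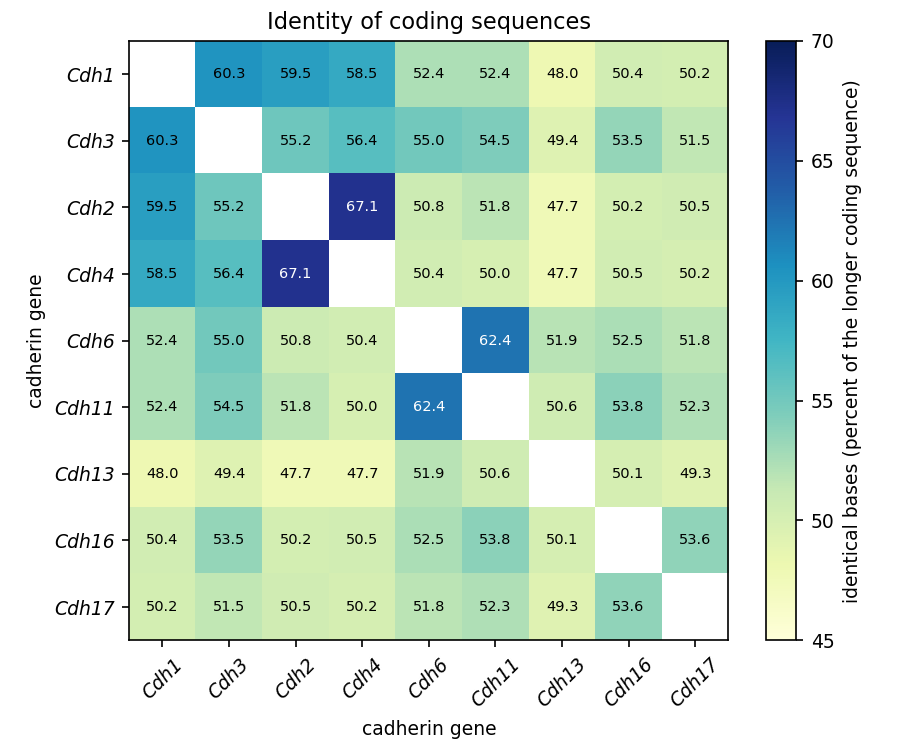
Identity between the coding sequences of the 9 cadherins, as identical bases in percent of the longer sequence, with the genes on both axes. Cdh2 with Cdh4 is the darkest cell at 67.1%, and the row of Cdh13, the shortest sequence, is the palest on this measure.

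In the annotation 5 of the 9 genes, Cdh11, Cdh16, Cdh3, Cdh1 and Cdh13, lie on mouse chromosome 8 (GRCm38). Together with Cdh5, Cdh8 and Cdh15 that makes 8 genes with a Cdh number there. From low to high coordinates, mean levels were 0.020 TPM for Cdh8, 7.22 for Cdh11, 33.0 for Cdh5, 549 for Cdh16, 4.16 for Cdh3, 54.2 for Cdh1, 9.01 for Cdh13 and 0.040 for Cdh15. TPM is a level per transcript length, scaled to a common sum in each library, and can be compared between genes. The neighbours Cdh3 and Cdh1, transcribed in the same direction, thus differed 13.0 ± 0.596-fold (SD, n = 2) in level. The lengths of the genes varied more than their transcripts, from 22486 bases for Cdh16 (chr8:104601911-104624396, minus strand) to 1041189 bases for Cdh13 (chr8:118283733-119324921, plus strand). In the annotation 11 other genes overlap a member, and 5 of them were listed at 0 counts in both libraries. The remaining 6 have no row in the deposited tables, and their part in the values was not tested.

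Facts of the whole tissue bear on how the levels are read. The libraries held 67252609 and 87330097 expected counts, which are estimated fragments per gene, so 3 counts of a gene the length of Cdh17 correspond to 0.0176 and 0.0124 TPM. A gene is called different between the libraries where an exact binomial test of its counts gave an adjusted p below 0.05 and the ratio was 2-fold or more. Kidney markers were present: 9 of 9, among them Slc34a1 of the proximal tubule and Aqp2 of the collecting duct, reached 1 TPM in both libraries and none was called different between them. Markers of other tissues differed between the libraries. All 7 skeletal muscle markers were higher in replicate 2 (summed TPM 2.33 against 797) and all 6 lymphocyte markers were too (3.52 against 35.2), while all 6 adrenal cortex markers were lower (52.1 against 0.730). Within these lists Cdh15 was at 0 counts in replicate 1 and Cyp11b2 at 0 in replicate 2. Among nerve markers, Tubb3, Snap25 and Syt1 were called higher in replicate 2. Smooth muscle and stroma markers summed to 391 and 256 TPM, and only Acta2 of 8 was called, at 153 and 61.5 TPM. Markers of endothelium (659 and 554), fat (611 and 591) and urothelium (68.5 and 42.7) were above 1 TPM in both libraries for 6 of 6, 5 of 5 and 5 of 5 genes, with none called. Genes of the mitochondrial genome took 11.2% of TPM in replicate 1 and 17.9% in replicate 2. In a tissue sample a lower level from fewer cells of a type cannot be told apart from less RNA per cell.

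The 9 cadherins ran from a gene with at most 2 counts in a library to one among the highest of the tissue. Of them 7 reached 1 TPM in both libraries, the level taken here as detected, and Cdh4 and Cdh17 did not. Over all 43346 genes the share detected was 30.2%, and over the 21474 protein-coding genes it was 57.2%. By mean TPM the order was Cdh16, Cdh1, Cdh13, Cdh11, Cdh3, Cdh2, Cdh6, Cdh4 and Cdh17. In 7 of the 8 neighbouring pairs of that order the libraries of the higher gene both lay above those of the lower one. The exception was Cdh2 and Cdh6.

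**Figure D2:**
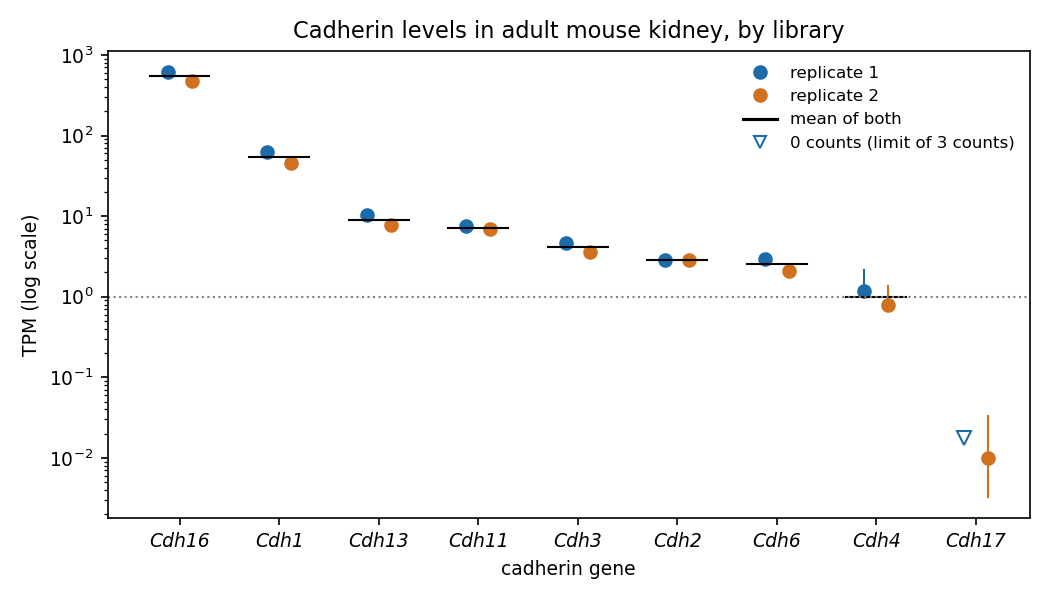
Level of each cadherin in TPM (log axis) in replicate 1 and replicate 2, with the mean as a bar, the deposited TPM interval as a thin vertical line and 1 TPM dotted. Cdh16 sits at 616 and 482 TPM and Cdh17 at or under its limit of 3 counts, with 7 genes between them.

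Cdh16 encodes kidney-specific cadherin and was by far the most abundant member. It measured 616 TPM in replicate 1 and 482 in replicate 2, from 92364 and 100437 expected counts, a mean of 549 ± 94.5 TPM (SD, n = 2). That placed it 201st and 232nd among all genes. It alone made up 87.0% and 87.4% of the summed TPM of the 9 cadherins, which was 708 and 552. Its level was 10.2 ± 0.552-fold that of Cdh1, and the ratio was close in both libraries, at 9.80 and 10.6.

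Cdh17 encodes liver-intestine cadherin, the closest relative of Cdh16 in domain layout. It had 0 expected counts in replicate 1 and 2 in replicate 2, listed as 0 and 0.010 TPM. Both libraries were therefore at or under the limit of 3 counts, and no fold is given against it. At this depth Cdh17 was not detectable in kidney, while its relative was among the highest genes.

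Cdh1 encodes E-cadherin, the type I cadherin of most epithelia. It measured 62.8 TPM in replicate 1 and 45.5 in replicate 2, a mean of 54.2 ± 12.2 (SD, n = 2), from 13044 and 14244 expected counts. It ranked 2073rd and 2395th of all genes. The deposited TPM intervals, whose level is not stated, ran from 61.2 to 63.7 and from 44.7 to 46.3, so the libraries lay apart. Cdh1 was 6.07-fold and 5.94-fold above Cdh13, the next member in the order.

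Cdh2 encodes N-cadherin, on chromosome 18 from 16588877 to 16809246 (minus strand). It measured 2.86 and 2.84 TPM, a mean of 2.85 ± 0.014 (SD, n = 2), the smallest spread of any detected member in deposited TPM. With TPM recomputed over nuclear genes Cdh2 was at 3.31 and 3.60, further apart than Cdh11 at 8.62 and 8.86. The counts of Cdh2, 625 and 833, gave deposited intervals of 2.62 to 3.09 and 2.64 to 3.04 TPM. E-cadherin RNA exceeded N-cadherin RNA 21.9-fold in replicate 1 and 16.0-fold in replicate 2, a mean of 19.0 ± 4.19 (SD, n = 2).

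Cdh3 and Cdh4, the other type I members, were low. Cdh3, which encodes P-cadherin, a cadherin known from placenta and basal epithelia, measured 4.69 and 3.63 TPM, from 948 and 1017 counts. Cdh4, which encodes R-cadherin, measured 1.18 and 0.80 TPM, from 332 and 333 counts. Cdh4 therefore lay on either side of the 1 TPM line. The deposited posterior mean, another estimate from the same reads, put it at 1.58 and 1.06 TPM, and TPM recomputed over nuclear genes at 1.36 and 1.01, all above the line. The deposited interval ran from 1.15 to 2.12 TPM in replicate 1 and from 0.785 to 1.36 in replicate 2, where it spans the line. The scale over nuclear genes raises every nuclear gene while the line stays at 1 TPM.

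Among type II members, Cdh11 exceeded Cdh6. Cdh11 encodes OB-cadherin, known from mesenchyme and osteoblasts, and measured 7.45 and 6.99 TPM, from 1604 and 2086 counts. Cdh6 encodes K-cadherin, known from the forming nephron and from kidney tumours, and measured 2.94 and 2.10 TPM, from 383 and 380 counts. Cdh6 was above Cdh2 in replicate 1 and below it in replicate 2, so these neighbours did not differ beyond their spread. The levels per length rest on the gene models of the deposited tables, which for 4 members differ from GENCODE M21. The model of Cdh6 has 2632 bases where M21 has 8167, that of Cdh11 4216 where M21 has 5647, that of Cdh3 3973 where M21 has 4384, and that of Cdh16 3001 where M21 has 2910. Cdh16 exceeded Cdh6, the other cadherin named after the kidney, 209-fold and 229-fold.

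Cdh13 encodes T-cadherin, a receptor for adiponectin known from vessel walls and heart. It measured 10.3 and 7.67 TPM, a mean of 9.01 ± 1.89 (SD, n = 2), from 1986 and 2044 counts. Its lower library, at 7.67 TPM, was only just above the higher library of Cdh11, at 7.45 TPM. The deposited intervals of these values overlapped, at 7.45 to 8.43 and 7.04 to 7.76. Adipoq, the gene of adiponectin and a fat marker, was itself at 66.9 and 45.6 TPM.

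The libraries were compared for each cadherin with an exact binomial test, two-sided, of their counts after scaling by edgeR's trimmed mean of M values, and p was adjusted over 18723 genes by Benjamini-Hochberg. None of the 8 cadherins tested was called, against 7.77% of all genes. DESeq2 size factors also gave 0 calls among them. At an adjusted p below 0.05 with any ratio, 6 of 8 passed, as did 56.8% of all genes, and 6 passed at an unadjusted p below 0.05. The test compares the reads of these libraries and its intervals cover counting error only, so a deeply counted gene such as Cdh16 can pass with a ratio near 1. Depth alone did not sort the members, as Cdh4, on 332 and 333 counts, passed and Cdh11, on 1604 and 2086, did not.

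The 6 that passed were all lower in replicate 2. In scaled counts Cdh16 was at 0.883 of its level in replicate 1 (95% exact interval 0.875 to 0.891) and Cdh1 at 0.886 (0.866 to 0.908). Cdh13 was at 0.835 (0.785 to 0.889; exact test, adjusted p = 5.18e-08) and Cdh3 at 0.871 (0.796 to 0.952; exact test, adjusted p = 0.00512). Cdh4 was at 0.814 and Cdh6 at 0.805, with adjusted p-values of 0.0176 and 0.00666 in the same exact test. Cdh2, at 1.08 (0.974 to 1.20), and Cdh11, at 1.06 (0.989 to 1.13), did not pass, with adjusted p-values of 0.209 and 0.161 in the exact test. Every member that passed belongs to those with a deposited TPM ratio under 0.8, and the pair that did not pass had ratios of 0.993 and 0.938. TPM and the tested counts come from the same reads, so this match is no separate support.

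The direction for Cdh2 and Cdh11 depended on the scale. Deposited TPM were lower in replicate 2 for 8 of the 9 cadherins, all but Cdh17, with a median ratio of 0.758 over the 8 tested. The median over all detected genes was 0.877, so the table as a whole was also lower in replicate 2 on this scale. With TPM recomputed over nuclear genes, the ratio was 1.09 for Cdh2 and 1.03 for Cdh11, and it stayed under 1 for the other 6. In scaled counts the median log2 ratio was -0.19 over the 8 cadherins and 0.02 over all genes tested. Summed TPM of kidney markers moved the same way, from 10804 to 7414. The part of the muscle, lymphoid and adrenal differences in these ratios was not tested.

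**Figure D3:**
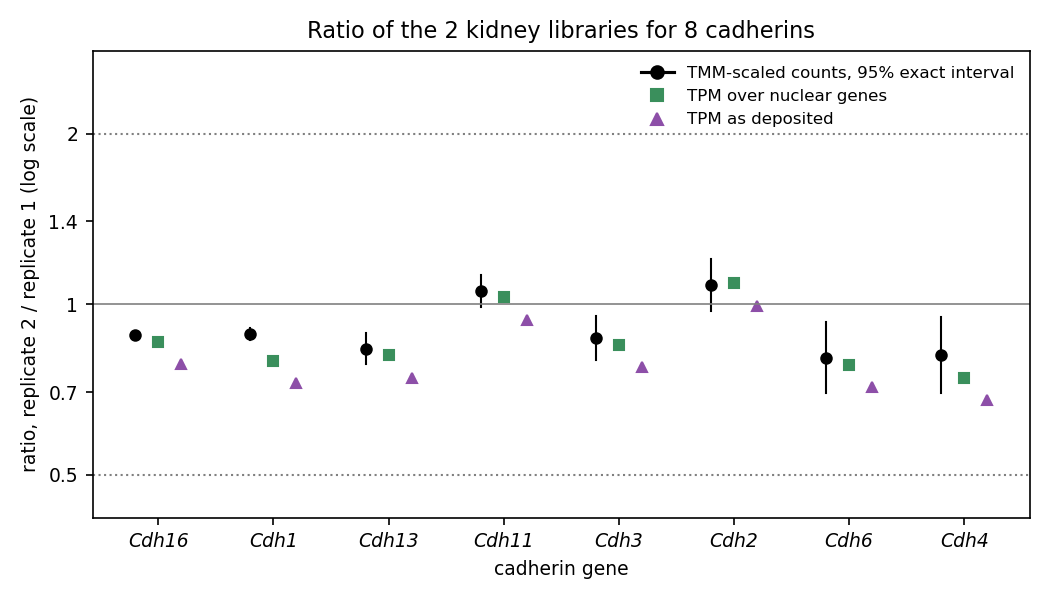
Ratio of replicate 2 to replicate 1 (log axis) for the 8 cadherins tested, from scaled counts with 95% exact intervals, from TPM over nuclear genes and from TPM as deposited, with 2-fold dotted. All 8 lie between 0.678 and 1.09, inside the 2-fold lines, and only Cdh2 and Cdh11 change sides of 1 between the scales.

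Transcript shares are the quantification's own split of a gene's TPM over its annotated transcripts, in percent. Cdh3, Cdh6, Cdh11 and Cdh16 have 1 transcript each in the deposited tables, so all their reads fell on it. Cdh13 has 7, of which the full-length Cdh13-201 took 99.9% in both libraries. The single transcript listed above 0 for Cdh17 rests on 2 counts.

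Cdh1 showed the largest shift of share among the detected members. Cdh1-201 took 71.4% in replicate 1 and 99.4% in replicate 2, and Cdh1-203 took 28.5% and 0%. In TPM, Cdh1-201 was at 44.8 and 45.3, with overlapping deposited intervals, and Cdh1-203 was at 17.9 (deposited interval 15.71 to 19.95) and 0 (upper bound 0.580). On the deposited TPM scale the difference between the libraries in the whole gene, 62.8 against 45.5, thus lay almost wholly in Cdh1-203. The median ratio over all detected genes on that scale was 0.877, so a level TPM was not a typical one. In expected counts, not scaled for depth, Cdh1-201 had 10163 and 14231 and Cdh1-203 had 2878 and 0. The split itself is an estimate, with a deposited SD of 167 counts for either transcript in replicate 1. The transcripts encode the same 884 codons. Cdh1-203 has a 315-base intron in the 3′ untranslated region, at chr8:106668885-106669199, ends 884 bases earlier and is 1227 bases shorter in all.

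The estimated length of the gene moved with that split. Its effective length, the number of positions a fragment can start from, averaged over transcripts, was 3871 bases in replicate 1 and 4213 in replicate 2. The TPM ratio of Cdh1 over nuclear genes was 0.794 and its count ratio 0.886, while those of Cdh16, with 1 transcript, were 0.858 and 0.883. A share that shifted by 20 points or more, a limit chosen after the values were seen, occurred in 11.0% of the 9388 detected genes with several transcripts. Among the 2178 of these within 2-fold of the level of Cdh1 it occurred in 4.87%. The shift of 28.5 points for Cdh1 was larger than that of 95.8% of the 9388 genes, whose median was 6.40 points.

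Cdh2 divided its reads over a pair of coding transcripts. Cdh2-202 took 52.8% and 66.4%, and Cdh2-201 took 47.0% and 33.6%. In TPM, Cdh2-202 was at 1.51 and 1.89 and Cdh2-201 at 1.34 and 0.96, and the deposited intervals of the libraries overlapped for both. Cdh2-202 begins at another first exon (chr18:16669958-16670069), 139 kb downstream of the start of Cdh2-201, shares 13 identical exons with it and encodes 849 codons in place of 906. The quantification thus assigned reads to transcripts with either start in both libraries. Reads over the first exons themselves were not examined.

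Cdh4 was mainly Cdh4-201, the full-length transcript of 16 exons and 913 codons, at 82.1% and 88.1%. Cdh4-203, with 6 exons and 334 codons, took 13.8% and 11.9%. These shares rest on 8.78 and 7.19 counts for Cdh4-203. In posterior mean estimates Cdh4-201 held 60.6% and 66.5%, and noncoding transcripts held most of what Cdh4-201 and Cdh4-203 left.

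**Figure D4:**
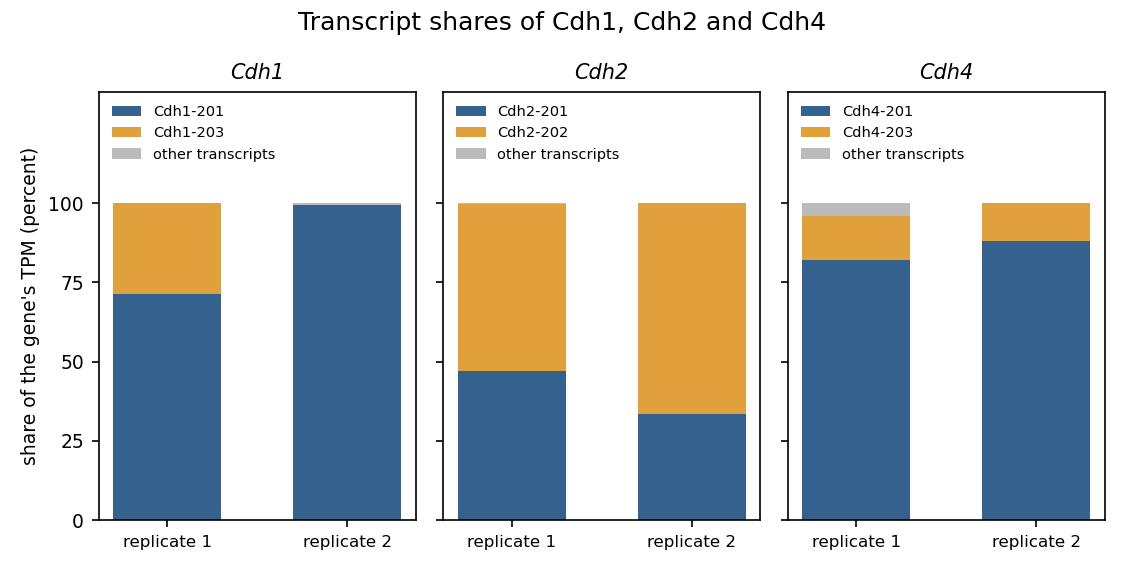
Share of each gene's TPM, in percent, taken by the named transcripts of Cdh1, Cdh2 and Cdh4 in replicate 1 and replicate 2. Cdh1-203 takes 28.5% of Cdh1 in replicate 1 and 0% in replicate 2, while both transcripts of Cdh2 and Cdh4 appear in each library.

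The cytoplasmic partners of the cadherins were abundant. Of 10 catenin genes 7 were detected and none was called different between libraries. Pkp4, a relative of p120 catenin, led at 189 and 140 TPM, and Jup, which encodes plakoglobin of both adherens junctions and desmosomes, followed at 177 and 146. Ctnnb1, which encodes beta-catenin, was at 74.2 and 87.7 TPM, and Arvcf, of the p120 group, at 66.5 and 52.6. Ctnna1 (alpha-catenin) and Ctnnd1 (p120 catenin), named for their roles after their values were seen, were at 47.0 and 47.0 and at 41.1 and 38.9 TPM. Pkp4, Jup, Ctnnb1 and Arvcf were above Cdh1 in both libraries, and all 6 were below Cdh16. The median of the catenin list was 43.5 TPM, where that of all detected genes was 13.2 and 11.7 TPM in replicates 1 and 2.

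Genes that link the junction to actin and to nectins were detected in 13 of 13 cases, with none called and a median of 21.5 TPM. Zyx (zyxin), at 66.2 and 55.2 TPM, and Vasp, at 52.6 and 44.7, which act on actin filaments, led them. Nectin2, an adhesion molecule of the immunoglobulin family, was at 36.0 and 28.9 TPM, and Afdn, which encodes the nectin-binding protein afadin, at 32.7 and 23.2. Genes of cadherin processing, shedding and recycling were likewise all detected, 11 of 11, with none called and a median of 30.9 TPM. Furin, a proprotein convertase, led at 132 and 96.2 TPM, followed by Rab11a, of the recycling endosome, at 95.3 and 125. Adam15, a metalloprotease, was at 85.7 and 62.9 TPM, and Ncstn, a subunit of gamma-secretase, at 75.8 and 62.2.

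Regulators on both sides of epithelial gene expression were present. Of 9 genes for repressors that bind E-boxes 8 were detected and none was called, with a list median of 4.38 TPM. Tcf3 was at 29.8 and 22.1 TPM, Tcf4 at 18.4 and 21.0, Zeb2 at 17.7 and 17.8, and Snai1 at 10.2 and 6.92. Of 11 epithelial regulators and markers 10 were detected and none was called, with a list median of 5.47 TPM. Epcam, an adhesion protein of epithelia, was at 43.9 and 32.4 TPM, and the splicing factor gene Esrp2 at 26.5 and 20.5.

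The other cadherins were mostly near 0. Of 19 further cadherin and cadherin-related genes 3 were detected, with medians of 0.04 and 0.07 TPM over the list in replicates 1 and 2. Over the 9 cadherins the medians were 4.69 and 3.63 TPM. Members and lists were chosen with earlier results of these data known, so this contrast depends on the choice. The detected ones were Cdhr5 (84.3 and 80.3 TPM) and Cdhr2 (29.2 and 20.7), whose proteins link the tips of microvilli, and Cdh5 (34.6 and 31.4), the cadherin of endothelium. Cdhr5 was thus above Cdh1 in both libraries. Cdhr4 came next, at 2.02 and 0.62 TPM. The list had 3 genes called higher in replicate 2, all with few counts: Cdh22 (7 and 33), Cdhr1 (2 and 30) and Cdh15 (0 and 16). Cdh15 encodes M-cadherin of muscle and stands on the muscle list that was higher in that library.

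By type, 3 of 5 type I genes and 3 of 13 type II genes were detected. Of 14 desmosomal genes 5 were detected, led by Jup, then Pkp3 (18.3 and 15.8 TPM), Pkp2 (11.9 and 7.23) and Dsp (3.44 and 3.35). Dsc3, Dsg1a and Dsg1b were called higher in replicate 2, from 1 count each to 113, 20 and 12. Of 9 giant cadherins 5 were detected, led by Celsr2 (52.1 and 40.0 TPM), Fat1 (25.1 and 17.3), Celsr1 (8.67 and 5.85) and Dchs1 (5.53 and 3.95). Celsr3 was called higher in replicate 2 on 18 and 48 counts, while its deposited TPM were 0.14 and 0.12, the other way round. Of 7 genes for ligands and receptors that meet cadherins 4 were detected, with Itgb1 at 38.1 and 43.1 TPM and Fgfr1, which N-cadherin can bind, at 29.7 and 28.1. Itgb7 encodes a chain of the integrin that binds E-cadherin on lymphocytes. It was called higher in replicate 2, at 1.83 and 4.86 TPM, as were the lymphocyte markers. Itgae, which encodes the other chain and was named after its values were seen, was at 0.46 and 0.67 TPM, neither detected nor called.

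**Figure D5:**
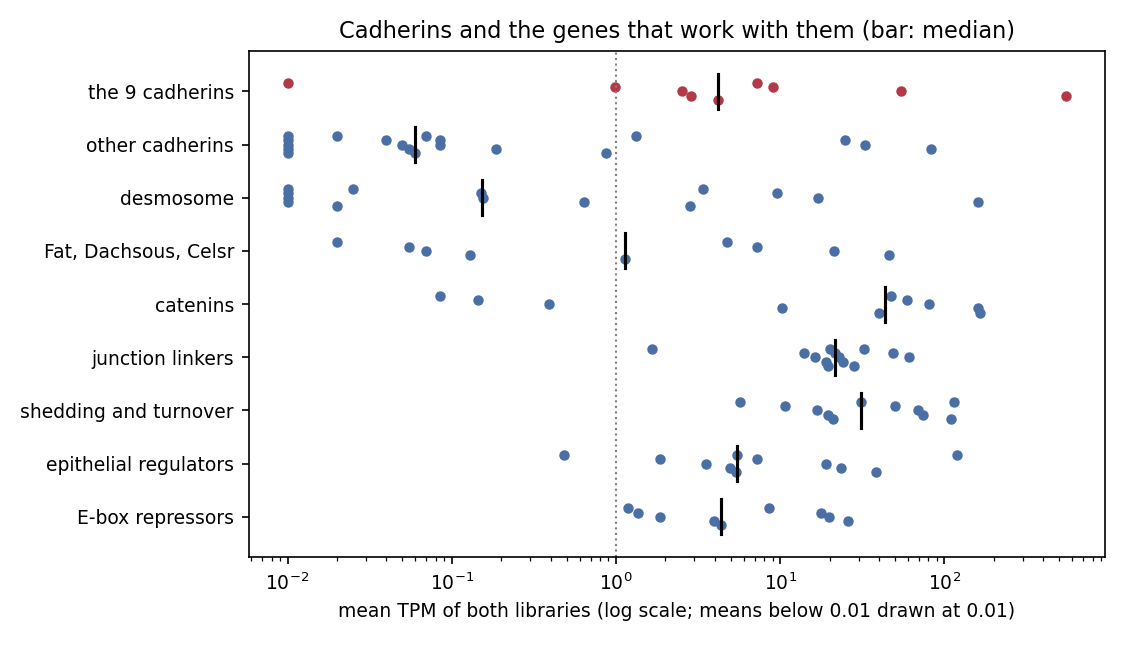
Mean TPM of both libraries (log axis) of the 9 cadherins and of the genes in the lists of other cadherins, desmosome, giant cadherins, catenins, junction linkers, turnover, epithelial regulators and E-box repressors, with each list's median as a bar and 1 TPM dotted. Cdh16, at 549 TPM, is the rightmost point, and the other cadherins and the desmosomal genes are mostly left of 1 TPM.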

How the data were processed

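The authors deposited, per gene and per transcript, an expected count (estimated fragments), TPM and FPKM, for build mm10. The annotation was M4, according to text records deposited with the tables. Which programs aligned and quantified the reads is not given in the sources used here. Per the file headers the tables also hold deposited posterior means, signal values for the spread of an estimate (the SD of a count and TPM bounds), effective lengths, and isoform shares in percent.

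Symbols, positions and sequences came from GENCODE M21 on GRCm38, which named 42462 of 43346 genes. Rows with numeric identifiers (26248) and spike-ins (97 rows, 1.59% and 2.29% of expected counts) were left out of library sizes and tests. Expected counts were rounded, and genes with 10 or more in sum were tested with SciPy 1.17.1. Scaling used edgeR 4.0.16 (factors 1.03 and 0.974) in R 4.3.3, and DESeq2 1.42.0 as an alternative. With 1 group, edgeR's quasi-likelihood test had no contrast. Alignments used Biopython 1.88. Junction and contig tables on mm9 were not used here.

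The members and lists were chosen with earlier results of these data known. All members were named, with transcripts at 5% or more, and the 4 highest genes of each list with any called. A few genes named by this rule are not reported here. The 20-point limit and the sequence comparisons were added later.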

Additional observations from a re-analysis of the deposited data

How the results depend on the processing

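Requiring 5 TPM in both libraries left 4 members detected in place of 7. Without replicate 1 or replicate 2 in turn, the members detected at 1 TPM numbered 7 to 8, the members keeping their place in the order 7 to 9, and the share of Cdh1-201 ran from 71.4% to 99.4%, so that share is set by which library is read. With 2 libraries, a mean without either one cannot leave their spread, so leaving one out says nothing of the stability of a mean. Of the other alternatives, 13 for the main values changed none past its limit. For single genes and transcripts 35 stayed within the spread and 8 moved: Cdh2, Cdh3, Cdh11 and Cdh16 rose to 3.45, 5.01, 8.74 and 661 TPM over nuclear genes, Cdh4 and Cdh17 to 1.32 and 0.015 in posterior means, and the posterior shares of Cdh4-201 and Cdh13-201 were 63.5% and 96.2%. The causes were not tested. All 7 alternatives to the library test called 0 members, while calls over all genes ran from 1443 to 2614 under the 6 with a test. No paired analysis was possible because there is 1 group. Depth limits Cdh17 and the transcript shares of Cdh4, and 2 libraries limit every SD.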
